A study of Tupaia belangeri with 15 samples.

Results

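Cone ON bipolar cells (cone ON BCs) of the tree shrew (TS, Tupaia belangeri) retina were examined in single-nucleus RNA libraries as the nuclei that carried CA10 and the ON markers ISL1 and TRPM1 or GRM6 but no unique molecular identifier (UMI, 1 counted RNA molecule) of PRKCA, the classical marker of rod bipolar cells. A nucleus was a member when it held at least 2 UMIs of CA10, at least 1 of ISL1 and at least 1 of TRPM1 or GRM6. It also had to have 0 UMIs of PRKCA, of the amacrine genes GAD1 and GAD2, of the ganglion cell gene RBPMS and of the cone gene ARR3, and fewer than 3 UMIs each of ERBB4 and DSCAM. Of 120437 barcodes, 119765 lay within the limits on genes (above 200, below 6000) and mitochondrial UMIs (below 5%), and 2309 of these met the rule. They are called PRKCA-negative ON nuclei here, by their rule, because 31.9% of them lay in clusters in which at least 50% of all ON nuclei carried PRKCA.

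The study compared retinas of infant, mature and senile TSs, 5 retinas per stage, with 1 library per retina and no treatment or genotype in the labels. Infant and mature animals came from a university animal centre, whereas senile animals were bought from a zoological institute, so that senile age and animal source cannot be told apart. The libraries held 13429873 to 58734300 UMIs, and any 2 of them shared 4 to 29 barcodes, none of which was a member nucleus in both.

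Bipolar cells carry signals from photoreceptors to the inner retina. ON BCs sense glutamate with the metabotropic receptor GRM6, which through the G protein subunit GNAO1 closes the cation channel TRPM1, and light, by lowering glutamate, opens that channel. Rod bipolar cells serve dim light, whereas cone ON BCs fall into several types that end at different depths of the inner plexiform layer, and OFF BCs use ionotropic glutamate receptors instead. The TS is a diurnal animal with a retina dominated by cones.

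Infant retinas gave 1024 PRKCA-negative ON nuclei (172 to 247 per retina), mature retinas 823 (104 to 209) and senile retinas 462 (36 to 177). Their median depth ran from 832 UMIs per nucleus in Senile 2 to 4978 in Mature 5, and the UMIs summed per retina from 34568 to 973193. In Senile 2, a single UMI was therefore worth 28.93 CPM (a gene's share of the UMIs summed over the nuclei of a retina, scaled to the usual common total, the unit of all levels given here). As a description of genes that the rule used, CA10 ranged from 3250 to 5294 CPM over the 15 retinas with a median of 3894, against a median of 256.6 in cone nuclei. ISL1 had a median of 723 CPM against 19.34 in cone nuclei, TRPM1 862.1 against 28.16 and GRM6 63.4 against 1.701. Few nuclei sat at the edge of the CA10 limit (140 with exactly 2 UMIs inside it and 76 with 1 outside), whereas 786 nuclei were kept out by a single PRKCA UMI. A single ISL1 UMI admitted 57.3% of the members (1324), and 1018 held only 1 UMI of TRPM1 and GRM6 together.

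Of the ON cascade genes that the rule did not use, GPR179 and GNAO1 stood above cone nuclei. GPR179, the scaffold that anchors regulators of the GRM6 cascade, ranged from 57.86 to 214.4 CPM (median 126.6), and cone nuclei stayed between 2.247 and 13.78. GNAO1 ranged from 1239 to 1824 CPM (median 1535), and cone nuclei from 79.45 to 248.5. In both genes the ranges of the retinas were apart. A list of 14 genes named as markers of cone ON bipolar types, of which 12 were summed, did not stand higher than in other bipolar nuclei. Its median was 1384 CPM in the members, 1612 in ON nuclei with at least 2 PRKCA UMIs and 1804 in OFF nuclei (both defined below). In Müller nuclei it was 1670 CPM and in cone nuclei 615.5. The rod bipolar gene TPBG, with 0 UMIs over all members, could not serve as a check.

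All 4659 ON nuclei, whatever their PRKCA, were then clustered together without the genes of the rule, and the members were found in 14 clusters, of which 11 held at least 50 members. A cluster was called PRKCA-rich when at least 50% of its ON nuclei carried PRKCA. In 5 clusters (numbers 1, 2, 4, 7 and 9) PRKCA was seen in only 4.34% to 13.8% of the ON nuclei, and they held 1557 members (67.4%). The PRKCA-rich clusters held 737 members (31.9%). The share of members in PRKCA-rich clusters was 45.1%, 34.0%, 43.8%, 26.7% and 21.8% in Infancy 1 to 5, 33.7%, 37.8%, 20.8%, 22.7% and 10.9% in Mature 1 to 5, and 40.7%, 36.1%, 60.0%, 38.0% and 31.9% in Senile 1 to 5. It was lowest in Mature 5, the retina with the deepest nuclei, and highest in Senile 3, and the stages overlapped. Because of these nuclei, the genes described in detail are also given without the PRKCA-rich clusters. This was done where a gene had a value there and its call changed or its fold moved by over 1.5 times. The clusters were made from the same counts, so values without them are partly set by the clustering and are a description, not independent evidence. The limit of 50% was set after the clusters had been seen.

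**Figure D1:**
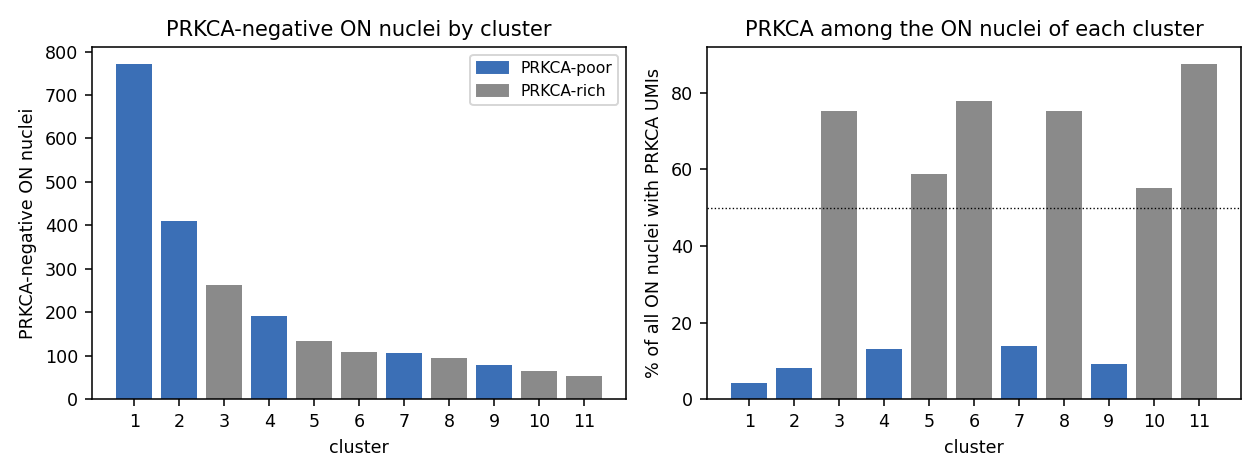
PRKCA-negative ON nuclei in the 11 clusters with at least 50 of them (left, number of nuclei) and the percentage of all ON nuclei of the same cluster that carried a PRKCA UMI (right, dotted line at 50%). Clusters 1, 2, 4, 7 and 9 (blue) lie between 4.34% and 13.8%, and the PRKCA-rich clusters (grey) lie between 55.1% and 87.4%.

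The genes that led each cluster are given as a description, since the clusters were made from the same counts. Cluster 1 was the largest, with 771 members, and was led by the transcription factor SOX5 (2513 CPM in its members against 252.6 in the other members), DACH2, the cofactor LDB2, the potassium channel KCNH8 and the calmodulin-binding PCP4 (3278 against 558.7 CPM). Cluster 2, with 411 members, was led by the membrane-bound netrin gene NTNG1 (3636 against 106.6 CPM), the phospholipase PLCB1, TCERG1L, SPOCK3, HMGCLL1 and the netrin receptor DCC (4216 against 273.2 CPM). Cluster 4, with 191 members, was led by LRP1B (4917 against 218.1 CPM), the protocadherin PCDH11X, MAP3K20 and the homeobox gene DMBX1. Cluster 7, with 106 members, had SLC9A9 (2258 against 39.45 CPM), NDST4, the netrin receptor UNC5C, the growth factor GDNF and the dopamine receptor DRD1 (1231 against 107 CPM). Cluster 9, with 78 members, was led by the serotonin receptor HTR2C (1098 against 3.472 CPM), EGFLAM and the kainate receptor GRIK2 (6663 against 699.7 CPM). These 5 clusters occurred in each stage: cluster 1, for example, made up 29.1% to 41.9% of the members of an infant retina, 29.8% to 38.6% of a mature one and 16.0% to 38.9% of a senile one.

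Genes that the study lists for its ON_BC and Rod_ON groups did not follow a single border among these clusters. HS3ST4, a heparan sulfate sulfotransferase of the ON_BC list, stood at 4997, 5264 and 5183 CPM in clusters 1, 4 and 7 but at 317.2 in cluster 2 and 139.6 in cluster 9. RELN, the secreted reelin, stood at 3123 CPM in cluster 2 and 3024 in cluster 9 but at 89.47 in cluster 7. ADARB2, an RNA-binding protein of the Rod_ON list, stood at 71.41 CPM in cluster 1 and 522 in cluster 2 but at 7981, 9833 and 6139 in the PRKCA-poor clusters 4, 7 and 9. The homeobox gene VSX1 stood at 262.5 CPM in cluster 1, 112.3 in cluster 2 and 3.085 in cluster 7. The members were thus made of groups with different levels of both lists, and a mean over all of them is a mean over these groups.

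The PRKCA-rich clusters with at least 50 members had leading genes of their own. Cluster 3 (262 members) was led by NFIB, TSHR and CPNE4, cluster 6 (108) by KCNH7 and SDK1, cluster 8 (94) by CNTN4 and LRRC4C, and cluster 11 (54) by SOX6 and PTPRK. Cluster 5 (134) was led by TRPM3, CDH20 and ROR1, and cluster 10 (66) by NXPH1, COL19A1 and TRPC7, with GRIK1, the kainate receptor of OFF BCs, at 2338 CPM. In clusters 5 and 10, 87.3% and 90.9% of the members carried at least 2 UMIs from the marker lists of other retinal classes (photoreceptors, horizontal, amacrine and ganglion cells and glia), against 27.4% to 51.6% in the 5 PRKCA-poor clusters. Nuclei that hold the RNA of 2 cells were not called here, and their part in these clusters was not tested.

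**Figure D2:**
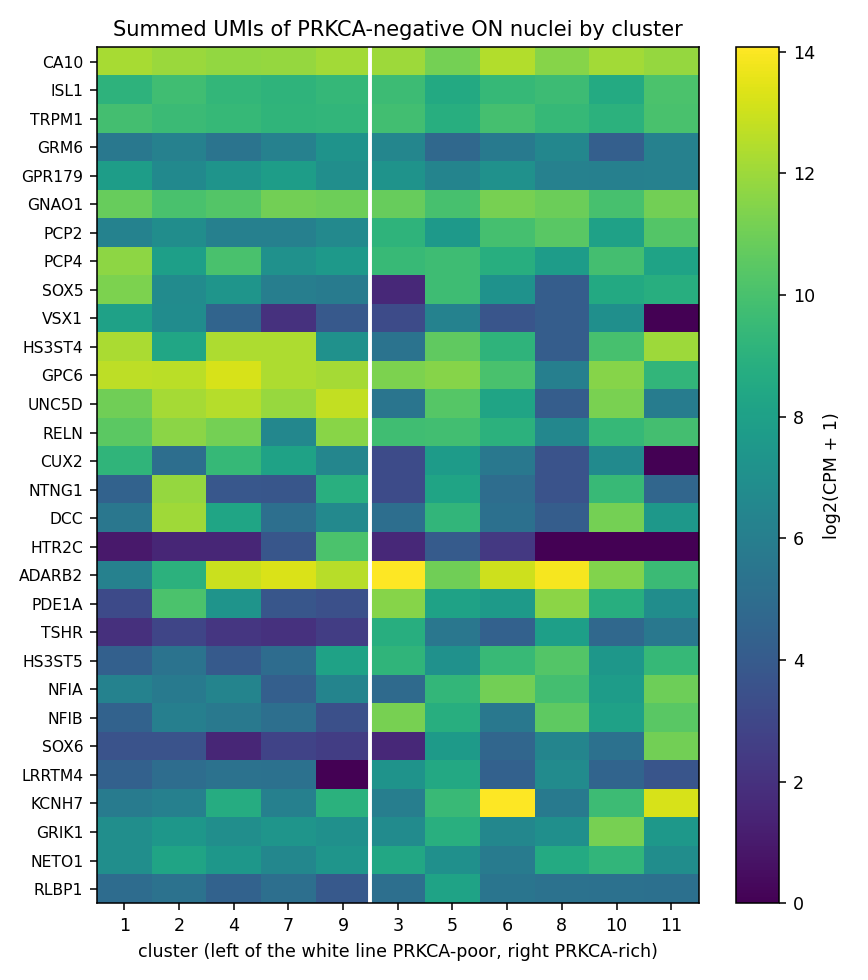
Levels of 30 genes, as log2(CPM + 1) of the UMIs summed over the PRKCA-negative ON nuclei of each cluster with at least 50 of them. CA10, ISL1 and TRPM1 are present in every column, which follows from the rule that selected on them and is no result. ADARB2 runs from 71.41 CPM in cluster 1 to 17189 in cluster 3 and HS3ST4 from 16.64 in cluster 8 to 5264 in cluster 4.

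Whether these cells became more or less frequent with age was examined with the share of all nuclei of a retina. The share was 2.28%, 2.77%, 2.13%, 1.96% and 3.13% in Infancy 1 to 5, 1.26%, 2.21%, 1.71%, 1.81% and 4.35% in Mature 1 to 5, and 2.34%, 0.483%, 1.04%, 0.697% and 1.51% in Senile 1 to 5. Senile 2 to 5 lay below all infant retinas, while Senile 1 lay among them and Mature 5 above all others. Infant retinas had a mean of 2.45% ± 0.482 (SD, n = 5), mature retinas of 2.27% ± 1.21 (SD, n = 5) and senile retinas of 1.21% ± 0.738 (SD, n = 5). The senile mean was 1.24 percentage points below the infant mean (2-sided exact permutation test, p = 0.0317, Benjamini-Hochberg adjusted p = 0.0952 over 3 comparisons), a difference that did not pass the correction. Without Senile 1 the senile minus infant difference was -1.52 percentage points and passed (exact permutation test, adjusted p = 0.0238). With any other retina left out it did not pass by this test. The adjusted p then ran from 0.0833 (without Mature 5) to 0.167 (without Infancy 5, Senile 2 or Senile 4). It also did not pass with PRKCA up to 1 UMI (0.0714), without nuclei with other classes' markers (0.107) or with permutation within Cell Ranger version (0.09). For senile against mature retinas the exact permutation test gave p = 0.111 (adjusted p = 0.167), and for mature against infant retinas p = 0.794. Counts of other bipolar nuclei also ran lower in senile than in infant retinas, with ranges that overlapped. ON nuclei with at least 2 PRKCA UMIs numbered 75 to 195 per infant, 81 to 183 per mature and 7 to 130 per senile retina. OFF nuclei numbered 148 to 297, 44 to 214 and 78 to 155. Their shares of all nuclei were not tested between stages.

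Depth differed between retinas, and the rule asks for UMIs of CA10, ISL1 and TRPM1 or GRM6 in the same nucleus. When each nucleus was thinned to 1500 UMIs and shallower nuclei were left out, 1222 members of 94600 nuclei remained (503, 482 and 237 by stage). The mean share was then 1.55% for infant, 1.48% for mature and 0.778% for senile retinas. Among these nuclei, senile retinas were 0.770 percentage points below infant retinas (exact permutation test, p = 0.00794, adjusted p = 0.0238), and the infant retinas, from 1.29% upwards, did not overlap with the senile ones, which reached at most 1.13%. Thinning and leaving out shallower nuclei acted together here and were not run apart. Members were shallower than the nuclei kept, with median UMIs of 1324 against 2313 in Senile 1 and 832 against 1461 in Senile 2, and the share in Senile 1 went from 2.34% to 0.983%. Senile 2 kept only 4 members. With retinas of at least 10 remaining members only, a choice made after seeing the data, the difference was 0.603 percentage points (exact permutation test, adjusted p = 0.0238). In a share, fewer cells of this type and more nuclei of other types recovered in a retina cannot be told apart.

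Among the ON nuclei themselves, the part without PRKCA did not show a difference between the stages. It was 51.3%, 57.2%, 57.1%, 42.2% and 46.5% in Infancy 1 to 5, 45.0%, 58.1%, 41.9%, 47.7% and 46.4% in Mature 1 to 5, and 57.1%, 64.3%, 46.2%, 45.9% and 44.2% in Senile 1 to 5. The retinas of the 3 stages overlapped throughout. The lowest adjusted p of the 3 exact permutation tests was 0.714. The libraries that GEO's labels give to Cell Ranger 5.0.1 held 45.0% to 64.3%, and those of version 7.0.1 held 41.9% to 47.7%. The versions overlapped among the mature retinas and did not overlap among the infant or the senile ones. At 1500 UMIs per nucleus the ranges of the versions were 51.5% to 66.7% and 50% to 72.1%, and the part of version and depth in these values was not tested.

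**Figure D3:**
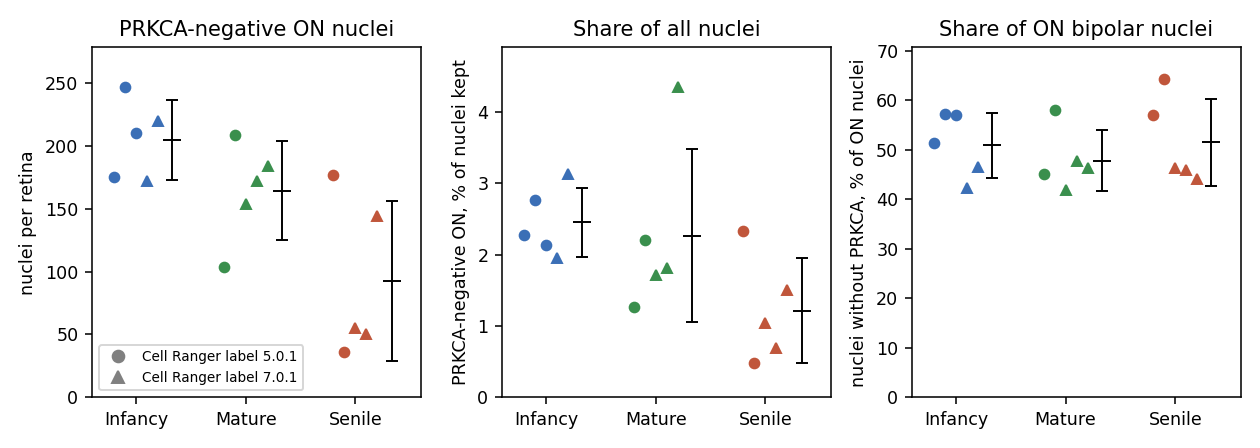
PRKCA-negative ON nuclei per retina as a number (left), as a percentage of all nuclei kept (middle) and as a percentage of all ON nuclei (right), by stage, with circles for libraries labelled Cell Ranger 5.0.1, triangles for 7.0.1 and black bars for mean ± SD (n = 5). In the middle panel Senile 2 to 5 lie below every infant retina, while Senile 1 (2.34%) and Mature 5 (4.35%) stand above the other retinas of their stages.

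To see how these nuclei differed from ON nuclei with PRKCA, they were compared within each retina with 1564 PRKCA-positive ON nuclei. These met the same rule but held at least 2 PRKCA UMIs. They came from several clusters with different leading genes, for example 47.2% of the 1055 ON nuclei in cluster 3 and 54% of 487 in cluster 6. In clusters 8, 11 and 14 it was 50.5% of 378, 73.5% of 430 and 90.8% of 65. PRKCA-positive nuclei thus cannot be taken as a single rod BC type. The comparison used 14 retinas, since Senile 2 had only 7 such nuclei. Of 4976 genes tested, 28.5% were called at an edgeR adjusted p under 0.05 (quasi-likelihood test with the retina as block, Benjamini-Hochberg), with 798 (16.0%) higher and 621 (12.5%) lower in PRKCA-negative nuclei. The genes of the rule took no part in the comparisons of gates. All tests of genes in this text are edgeR quasi-likelihood tests unless another is named. Those between stages had stage and Cell Ranger version in the model and kept the genes of the rule. Errors of log2 fold changes are approximate standard errors, worked back from the fold change and the F statistic of the test. In bulk sums of nuclei a change in the mix of cells and a change per cell cannot be told apart.

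Transcription factors split in both directions. Of 15 bipolar factors tested, 6 were higher (VSX1, CUX2, ZFHX4, SOX5, TSHZ2 and PRDM8) and 8 lower (SOX6, LHX4, NFIA, NFIB, ST18, CRX, NEUROD1 and NEUROD4), which is more in each direction than the background of 16.0% and 12.5%. The lists were chosen with earlier results of these data known, so this excess is no independent evidence. With thinned nuclei the NEUROD4 call was lost (-0.30). The cut-like homeobox gene CUX2 ranged from 148.9 to 436.7 CPM (median 297.3) in PRKCA-negative nuclei and from 6.571 to 63.73 (median 30.19) in PRKCA-positive ones. The ranges did not overlap, and the log2 fold change was 3.38 ± 0.18 (adjusted p = 5.31e-13). VSX1, a homeobox gene of cone BCs in other mammals, ranged from 44.66 to 193.4 CPM (median 86.79) against 2.391 to 33.42 (median 18.33), again with no overlap (2.94 ± 0.25, adjusted p = 6.71e-10). The zinc finger homeobox gene ZFHX4 reached 468.8 to 1129 CPM (median 774.2) against 50.38 to 204.7 (median 111.4). All retinas lay apart for ZFHX4 (2.89 ± 0.17, adjusted p = 2.46e-12).

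On the other side stood SOX6, a SOX family factor, which ranged from 11.3 to 190.8 CPM (median 73.86) against 147.6 to 610.9 (median 434.7) in PRKCA-positive nuclei. It was lower in all 14 retinas, with ranges that overlapped (-2.72 ± 0.27, adjusted p = 9.52e-09), and without the PRKCA-rich clusters the value was -5.64. The nuclear factor NFIA ranged from 79.12 to 752.1 CPM (median 327.7) against 822.5 to 1630 (median 1115), with no overlap (-2.01 ± 0.15, adjusted p = 8.59e-11; -4.14 without PRKCA-rich clusters). The LIM homeobox gene LHX4 had a median of 30.1 CPM against 106.8 and was lower in every retina (-2.03 ± 0.18, adjusted p = 1.21e-09; -5.35 without PRKCA-rich clusters). As a description, since the clusters were made from the same counts, the counts of these factors in the members came largely from the PRKCA-rich clusters. In clusters 1 and 2 LHX4 stood at 2.364 and 3.776 CPM and SOX6 at 11.35 and 11.33, whereas in the PRKCA-rich cluster 11 they stood at 156.2 and 2139.

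The gene lists of the study, which were chosen on these same samples and are no independent evidence, followed their names. All 8 ON_BC genes were higher than in PRKCA-positive nuclei, beside 16.0% of all genes. The glypican GPC6 ranged from 3583 to 6740 CPM (median 4461) against 1335 to 2537 (median 1832), with no overlap (1.41 ± 0.10, adjusted p = 2.13e-11). The netrin receptor UNC5D ranged from 1788 to 3630 CPM (median 2372) against 178.1 to 956.9 (median 368.2), with no overlap (2.64 ± 0.20, adjusted p = 8.82e-11). The 8 Rod_ON genes were all lower, beside 12.5% of all genes. ADARB2 ranged from 2794 to 6821 CPM (median 4455) against 6550 to 12436 (median 9434), with ranges that overlapped at their ends (-1.13 ± 0.09, adjusted p = 4.92e-10; -2.15 without PRKCA-rich clusters). The phosphodiesterase PDE1A ranged from 345.5 to 991.9 CPM against 1100 to 2109, with no overlap (-1.25 ± 0.12, adjusted p = 3.77e-09; -2.43 without PRKCA-rich clusters).

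Of the rod bipolar markers named from other mammals, LRRTM4 and VSTM2B had enough counts for a test, and both were lower, as were 12.5% of all genes. LRRTM4, a synaptic adhesion protein, ranged from 25.73 to 178.6 CPM (median 84.42) against 108.7 to 2428 (median 779). It was lower in all 14 retinas (-3.02 ± 0.15, adjusted p = 2.33e-13; -4.36 without PRKCA-rich clusters), although the ranges overlapped. VSTM2B had medians of 77.81 and 159.3 CPM (-1.04 ± 0.12, adjusted p = 1.91e-07).

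Of 6 genes of the ON cascade tested between the ON gates, GPR179, RGS7 and GNB5 were higher and GNAO1 and PCP2 lower, beside 16.0% and 12.5% of all genes. GPR179 had a median of 103 CPM in PRKCA-positive nuclei and was higher in PRKCA-negative ones in 11 of 14 retinas (0.40 ± 0.08, adjusted p = 0.000501). The regulator RGS7 ranged from 376.1 to 628.7 CPM (median 495.6) against 302.5 to 502 (median 355.1) and was higher in 13 of 14 retinas (0.49 ± 0.08, adjusted p = 9.99e-06). GNAO1 was lower in all 14 retinas, with a median of 2021 CPM in PRKCA-positive nuclei (-0.44 ± 0.04, adjusted p = 7.91e-09). PCP2, a regulator of G proteins of the GNAO1 kind, ranged from 82.2 to 694.3 CPM (median 291.1) against 382.4 to 1062 (median 513) and was lower in all 14 (-1.30 ± 0.13, adjusted p = 1.84e-08; -2.81 without PRKCA-rich clusters). RGS11, a partner of GPR179, had medians of 332.7 and 338.4 CPM and did not pass the test (0.09 ± 0.07, adjusted p = 0.500).

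Further genes named by the rule were HMGCLL1, a lyase of ketone body synthesis (log2 fold change 3.38), the homeobox gene PBX3 (2.99), the calcium-binding CIB4 (2.92), TCERG1L (2.85), the teneurin TENM1 (2.78), LDB2 (2.76), PCDH11X (2.70), the secreted WNT5A (2.67) and MCTP2 (2.65), all higher in each of 14 retinas. Some were uneven within the members. HMGCLL1 stood at 890.2 CPM in cluster 2 against 36.18 in the other members, and TCERG1L at 821.3 against 24.25. PCDH11X stood at 949.2 CPM in cluster 4 against 44.64. LDB2 and TENM1 were leading genes of cluster 1, whereas PBX3, CIB4, WNT5A and MCTP2 led no cluster. PBX3 ranged from 145.6 to 362.9 CPM (median 273.8) against 11.14 to 71.41 (median 35.54). Lower in each of 14 retinas were the potassium channel KCNH7 (-2.46), the phosphatase PTPRK (-2.31), ADAMTSL1 (-2.20), the sulfotransferase CHST11 (-2.19), GCA (-2.14), SDK1 (-2.14), KIRREL3 (-2.11) and the sodium channel SCN9A (-2.01). KCNH7 ranged from 234.3 to 3356 CPM (median 1321) against 4028 to 8718 (median 5623), with no overlap, and without PRKCA-rich clusters its value was -5.59. Leaving out those clusters moved the other lower genes of this group as well, for example to -5.06 for KIRREL3, -4.58 for SCN9A and -4.50 for SDK1.

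To see how they differed from the OFF pathway, the same nuclei were compared in all 15 retinas with 2027 OFF nuclei, which held at least 2 UMIs each of CA10 and GRIK1, no ISL1, TRPM1, GRM6 or PRKCA, and met the other limits of the rule. GRIK1 was counted on its numbered copy GRIK1li1, since the plain symbol had almost no counts. Of 4726 genes tested, 34.7% were called, 762 (16.1%) higher and 877 (18.6%) lower in PRKCA-negative ON nuclei. The ON cascade was higher in 5 of 7 genes tested. GPR179 was higher in all 15 retinas, with OFF nuclei at 10.85 to 58.5 CPM, which overlapped only at the ends (median 41.32; 1.84 ± 0.14, adjusted p = 1.84e-11). GNAO1 did not overlap with OFF nuclei, which ranged from 266.2 to 613.3 CPM (median 417.7; 1.82 ± 0.07, adjusted p = 5.69e-17). RGS11, PCP2 and RGS7 were also higher (1.00, 1.58 and 0.67 on the log2 scale), and without PRKCA-rich clusters PCP2 no longer passed. RGS7BP, a membrane anchor of RGS7, was lower (-1.35 ± 0.21, adjusted p = 4.29e-06).

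Of 5 OFF markers tested, NETO1, TACR3 and FEZF2 were lower and the protocadherin PCDH10 higher (0.48, and 0.35 and no longer called without PRKCA-rich clusters), beside 18.6% of all genes lower and 16.1% higher. NETO1, an auxiliary subunit of kainate receptors, ranged from 133.3 to 265.1 CPM (median 202.5) against 531.7 to 942.9 (median 760.5) in OFF nuclei, with no overlap (-1.97 ± 0.09, adjusted p = 1.01e-15). It also had a median of 213.8 CPM in PRKCA-positive ON nuclei, from which the members did not differ by the test (-0.07 ± 0.10, adjusted p = 0.713). The neurokinin receptor TACR3 reached at most 19.85 CPM against 75.58 to 178.2 (-3.78 ± 0.21, adjusted p = 2.82e-14; -4.91 without PRKCA-rich clusters). The zinc finger factor FEZF2 reached at most 15.89 CPM against 32.4 to 137.5 (-3.72 ± 0.23, adjusted p = 1.88e-13; -5.02 without PRKCA-rich clusters).

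Among the genes higher than in OFF nuclei, those with the largest differences by the rule for named genes were RELN, PTPRQ and HS3ST4. RELN ranged from 1200 to 1970 CPM (median 1544) against 22.34 to 146.5 (median 67.34; 4.35 ± 0.14, adjusted p = 7.28e-19). The phosphatase PTPRQ ranged from 439.7 to 1733 CPM (median 901.7) against 0 to 139.5 (median 35.71; 4.34 ± 0.22, adjusted p = 3.96e-15). HS3ST4 ranged from 1594 to 3601 CPM (median 2698) against 53.35 to 236.6 (median 123.9; 4.21 ± 0.11, adjusted p = 4.98e-20). None of these ranges overlapped. NWD2 (3.77), the transporter ABCD2 (3.71), PDE1A (3.68), the metabotropic receptor GRM5 (3.57), ADARB2 (3.46), the factor RFX3 (3.34), OSBPL10 (3.30), the receptor ADGRA3 (3.26) and RASSF2 (3.23) were also higher in all 15 retinas. Lower in all 15 were the collagen COL19A1 (-4.52), the neurexophilin NXPH1 (-4.27), the channel TRPC7 (-4.18), HS3ST2 (-4.17), the plexin PLXNA4 (-4.17), SHROOM3 (-4.13), CCDC80 (-4.06), the cadherin FAT4 (-3.99), RIT2 (-3.85), KCNG3 (-3.81) and NXPH2 (-3.72). COL19A1 reached 15.02 to 99.25 CPM (median 37.09) against 526.6 to 1507 (median 893.9). Without PRKCA-rich clusters, several of these lower values were larger, with -6.90 for NXPH1, -6.40 for PLXNA4 and -6.26 for COL19A1.

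All 8 ON_BC genes of the study were higher than in OFF nuclei as well, and so were 5 of the 6 Rod_ON genes tested (PDE1A, SULF1, ADARB2, NWD2 and HS3ST5), beside 16.1% of all genes. Without the PRKCA-rich clusters SULF1 (0.12) and HS3ST5 (0.03) no longer passed, whereas ADARB2 (2.48), NWD2 (3.50) and PDE1A (2.49) did. This did not hold in each PRKCA-poor cluster. In cluster 1, the largest, the summed levels of ADARB2 (71.41 CPM), NWD2 (4.729) and PDE1A (8.039) lay below the means of OFF nuclei (410.8, 32.14 and 45.89 CPM).

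**Figure D4:**
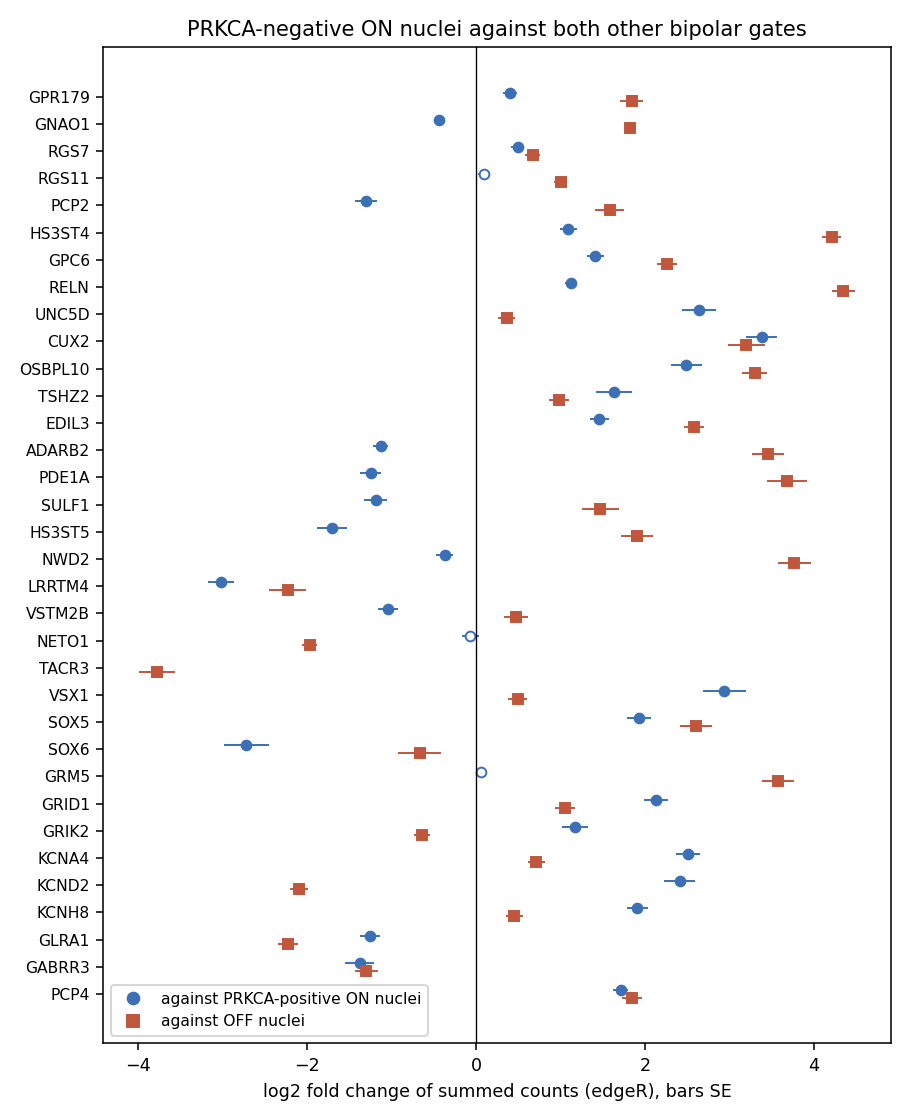
Log2 fold changes of summed counts (edgeR, bars approximate SE) for 34 genes in PRKCA-negative ON nuclei against PRKCA-positive ON nuclei (blue circles, 14 retinas) and OFF nuclei (red squares, 15 retinas), with filled symbols for an adjusted p under 0.05. RELN and HS3ST4 are further to the right against OFF nuclei (4.35 and 4.21) than against PRKCA-positive nuclei (1.12 and 1.09), while ADARB2 and PDE1A lie to the left of 0 against PRKCA-positive nuclei (-1.13 and -1.25) and to the right against OFF nuclei (3.46 and 3.68).

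Of 19 glutamate receptor and transporter genes tested against PRKCA-positive nuclei, 8 were higher and 2 lower, beside 16.0% and 12.5% of all genes, so that the lower count was no more than the background. Of 17 tested against OFF nuclei 4 were higher and 10 lower, beside 16.1% and 18.6% of all genes, and GRIK4 changed sign without PRKCA-rich clusters. The AMPA receptor subunit GRIA4 ranged from 115.7 to 680.3 CPM (median 248.1) against 907.8 to 1721 (median 1219) in OFF nuclei, with no overlap (-2.38 ± 0.10, adjusted p = 9.80e-17; -3.01 without PRKCA-rich clusters), and did not pass against PRKCA-positive nuclei (-0.04 ± 0.11). The delta receptor GRID1 ranged from 230.4 to 731.6 CPM (median 514.6) and was above both PRKCA-positive nuclei (median 121.6; 2.13 ± 0.14, adjusted p = 8.69e-12) and OFF nuclei (median 214.8; 1.05 ± 0.12, adjusted p = 5.45e-08). GRM5 had medians of 1534 and 1494 CPM in the 2 ON gates (0.06 ± 0.05, adjusted p = 0.512) and of 148.4 in OFF nuclei.

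Among 16 GABA and glycine receptor and transporter genes tested against PRKCA-positive nuclei, 4 were higher and 2 lower, the latter no more than the background of 12.5%, and among 17 against OFF nuclei 4 were higher and 8 lower, beside 16.1% and 18.6% of all genes. The glycine receptor subunit GLRA1 was below both, at 79.12 to 201.7 CPM (median 144.6) against 236 to 378.1 (median 303.1) in PRKCA-positive nuclei and 341.8 to 757.1 (median 613.3) in OFF nuclei. Its range overlapped with neither (-1.26 ± 0.12, adjusted p = 3.20e-09, and -2.23 ± 0.12, adjusted p = 8.95e-15; -2.65 and -3.67 without PRKCA-rich clusters). The GABA receptor subunit GABRB2 had medians of 150.2 CPM against 841.4 in OFF nuclei (-2.39 ± 0.09, adjusted p = 1.08e-17). GABRR1, a subunit of the GABA-C receptors of bipolar axon terminals, had medians of 213.7, 230.4 and 128.6 CPM in PRKCA-negative, PRKCA-positive and OFF nuclei.

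Of 21 potassium and HCN channel genes tested against PRKCA-positive nuclei, 8 were higher and 3 lower (background 16.0% and 12.5%), and of 22 against OFF nuclei 7 were higher and 9 lower (background 16.1% and 18.6%). Among the 7, KCNH7 changed sign without PRKCA-rich clusters. The potassium channel KCND2 lay between the 2 other gates, at 648.3 to 1422 CPM (median 897.1) against 19.58 to 397.9 (median 167.2) in PRKCA-positive and 2194 to 5227 (median 3476) in OFF nuclei. No ranges overlapped (2.41 ± 0.18, adjusted p = 6.14e-11, and -2.10 ± 0.11, adjusted p = 1.10e-14). Within the members KCND2 was uneven, at 3274 CPM in cluster 2 and 3250 in cluster 9 but 223.2 in cluster 1. KCNA4 ranged from 66.37 to 190.2 CPM (median 148.4) against a median of 25.69 in PRKCA-positive nuclei (2.51 ± 0.14, adjusted p = 1.11e-12). Of 16 calcium and sodium channel genes, 2 were higher and 4 lower than in PRKCA-positive nuclei, of which the higher count lay below the background of 16.0%. The L-type channel CACNA1D, which drives release at ribbon synapses, had medians of 350 and 362.6 CPM in the ON gates (0.06 ± 0.07, adjusted p = 0.643). Against OFF nuclei CACNA1D did pass the test, as did 34.7% of all genes, and its call was kept in 19 alternatives and lost in 1.

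Of 20 genes of the ribbon synapse tested against PRKCA-positive nuclei, 8 were called higher and 0 lower, beside a background of 16.0% and 12.5%, and the other 12 did not pass. The priming factor UNC13C, counted on the copy UNC13Cli1, ranged from 1479 to 2353 CPM (median 1807) against 655.8 to 1517 (median 901.2) and was higher in all 14 retinas (0.99 ± 0.08, adjusted p = 3.91e-10). ERC2, a protein of the active zone, had medians of 362.2 and 258 CPM (0.61 ± 0.09, adjusted p = 3.54e-06), and RIMS2 had medians of 2544 and 2030 (0.32 ± 0.05, adjusted p = 5.79e-06). Against OFF nuclei 3 of 20 genes tested were higher and 5 lower, beside 16.1% and 18.6% of all genes. UNC13Cli1 was again higher, with OFF nuclei at a median of 838.5 CPM (adjusted p = 1.07e-10, higher in all 15 retinas), and ERC2 lower, with OFF nuclei at 582.4 (-0.69 ± 0.07, adjusted p = 4.70e-09).

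Of 39 adhesion genes tested against PRKCA-positive nuclei 11 were higher and 16 lower (background 16.0% and 12.5%), and of 38 against OFF nuclei 10 were higher and 16 lower (background 16.1% and 18.6%). Among the 10, CNTN4 and LRRC4C changed sign without PRKCA-rich clusters (-1.96 and -0.48). The teneurin TENM1 ranged from 586.1 to 1157 CPM (median 903.2) against 19.58 to 357.1 (median 133) in PRKCA-positive nuclei (2.78 ± 0.22, adjusted p = 1.65e-10). TENM3 lay below OFF nuclei with no overlap, at 249.8 to 636.4 CPM (median 424.2) against 2422 to 4063 (median 3049; -3.0 ± 0.09, adjusted p = 3.44e-19; -4.73 without PRKCA-rich clusters). Of 16 guidance genes 9 were higher and 1 lower than in PRKCA-positive nuclei, and of 18 against OFF nuclei 5 were higher and 10 lower, beside the same backgrounds. DCC ranged from 500.6 to 1454 CPM (median 914), above PRKCA-positive nuclei (median 203.7; 1.99 ± 0.16, adjusted p = 1.92e-10) and below OFF nuclei (median 3271; -1.91 ± 0.11, adjusted p = 1.83e-14). Within the members DCC was uneven, at 4216 CPM in cluster 2 against 273.2 in the other members. The Slit receptors ROBO1 and ROBO2 went opposite ways against OFF nuclei, ROBO1 with medians of 369 and 2363 CPM (-2.70 ± 0.11, adjusted p = 2.46e-17) and ROBO2 with 7177 and 1057 (2.79 ± 0.16, adjusted p = 5.68e-14). Neither overlapped between these gates.

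Of 7 calcium-binding genes tested, PCP4, HPCAL1, NCALD and CABP1 were higher and CALB1 lower than in PRKCA-positive nuclei, beside 16.0% and 12.5% of all genes. PCP4 ranged from 688.6 to 1948 CPM (median 1380) against 275 to 525.6 (median 446), with no overlap (1.71 ± 0.09, adjusted p = 1.11e-12). CABP1 had medians of 232.9, 110.1 and 778.8 CPM in PRKCA-negative, PRKCA-positive and OFF nuclei, higher than the first of the other gates (1.00 ± 0.11, adjusted p = 6.20e-08) and lower than the second (-1.90 ± 0.08, adjusted p = 9.37e-17). Of 9 cyclic nucleotide phosphodiesterases, 2 were higher and 5 lower than in PRKCA-positive nuclei (background 16.0% and 12.5%), and 2 higher and 4 lower than in OFF nuclei (background 16.1% and 18.6%). Gap junction genes had too few counts for a test against either gate. GJD2, connexin 36, had a median of 26.66 CPM in the members and 314.5 in cone nuclei.

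Markers of other retinal classes were measured beside these results, and their part in them was not tested. The summed cone markers of the members ranged from 77.81 to 139.1 CPM in infant, 79.4 to 133.6 in mature and 86.79 to 303.9 in senile retinas, against a median of 3421 in cone nuclei. PDE6H, a cone phosphodiesterase subunit, was the 1 cone marker that could be tested and was higher than in PRKCA-positive nuclei in 13 of 14 retinas (medians 57.86 and 40.39 CPM; 0.42 ± 0.13, adjusted p = 0.0119; 0.27 without PRKCA-rich clusters and 0.40 with no filter on low counts, both no longer called). Summed Müller markers ranged from 239.9 to 1029 CPM, with a median of 407.9 against 4154 in Müller nuclei, and SLC1A3, a glial glutamate transporter, was higher than in PRKCA-positive nuclei (0.44 ± 0.10, adjusted p = 0.00173; -0.32 and no longer called without PRKCA-rich clusters). The other Müller genes tested, RLBP1 (0.11), WIF1 (0.11) and TF (-0.01), did not pass. OFF nuclei had a median of 1639 CPM of Müller markers, and SLC1A3 was lower in the members than in them (-2.95 ± 0.12, adjusted p = 3.06e-17). Microglia markers had medians of 0 CPM in infant and senile retinas and 2.055 in mature ones. Members with at least 2 UMIs of other classes' markers numbered from 4 of 36 in Senile 2 to 139 of 184 in Mature 5, the retinas with the shallowest and the deepest nuclei.

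How the expression of these nuclei changed with age was tested on the same sums in all 15 retinas, with stage and Cell Ranger version in the model. Between mature and infant retinas 24 of 5850 genes were called (0.410%), 12 higher and 12 lower, with 450 at an unadjusted p under 0.05. Between senile and infant retinas 24 were called (0.410%), 16 higher and 8 lower, with 416 at an unadjusted p under 0.05. For senile against mature retinas the edgeR count was 0 genes (0%), with 526 at an unadjusted p under 0.05, and DESeq2 called 8. The balance of directions was not stable. For senile against infant retinas it was 13 higher and 21 lower in the earlier version alone, 4 and 8 in cluster 1 alone and 14 and 2 with no version term, and for mature against infant retinas 7 and 19 in cluster 1 alone and 8 and 4 with no version term. Of the 34 genes called in either comparison with infancy, 14 were called in both, and 28 were numbered copies, antisense, LINC or unnamed features. How surely reads can be assigned to such features was not tested. The 6 genes with a plain symbol were IGF2BP2, EVA1C, MMP16, ST8SIA6, TSHZ2 and ABCA5; ST8SIA6 and ABCA5 lay outside the rule for named genes and were chosen after their values were seen.

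IGF2BP2, an RNA-binding protein of developing tissues, stood at 84.6, 62.1, 72.1, 48.8 and 35.9 CPM in Infancy 1 to 5. It was at 0, 0, 8.85, 0 and 2.06 CPM in Mature 1 to 5 and at 0, 0, 23.8, 16.6 and 4.22 in Senile 1 to 5. All infant retinas lay above all others, but the value of 0 in Senile 2 says little, since a single UMI there would be 28.93 CPM. The difference was -4.24 ± 0.60 on the log2 scale between mature and infant retinas (adjusted p = 0.00151) and -2.96 ± 0.65 between senile and infant retinas (adjusted p = 0.0508), which missed the threshold. Within the later version alone the mature difference was -3.56 and no longer called. The call was kept in 22 alternatives and lost in this 1. In the remaining alternatives IGF2BP2 had no value, and they say nothing about its call. IGF2BP2 was the 1 called gene among 5 tested from a list of 19 genes of immature neurons and growth, beside 0.410% of all genes.

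EVA1C, a receptor for Slit guidance proteins, went the other way. It stood at 3.39, 14.9, 11.5, 12.9 and 15.1 CPM in Infancy 1 to 5, at 69.5, 68.6, 63.8, 31.9 and 76.0 in Mature 1 to 5, and at 43.7, 57.9, 39.7, 116 and 57.0 in Senile 1 to 5. Every mature and senile retina lay above every infant one, but in Senile 2 a single UMI was worth 28.93 CPM, so its value rests on very few UMIs. The log2 fold change was 2.25 ± 0.35 for mature (adjusted p = 0.0025) and 2.18 ± 0.39 for senile retinas (adjusted p = 0.00761), and -0.07 ± 0.33 between senile and mature retinas (adjusted p = 0.999). The senile call was lost without PRKCA-rich clusters (2.19) and within the earlier (2.02) or the later version (2.18) alone, and the mature call within the later version alone (2.01).

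The matrix metalloproteinase MMP16 stood at 244, 291, 254, 250 and 279 CPM in Infancy 1 to 5, at 586, 357, 439, 353 and 388 in Mature 1 to 5, and at 401, 318, 334, 373 and 333 in Senile 1 to 5. Infant retinas lay below all others, with a log2 fold change of 0.67 ± 0.14 for mature retinas (adjusted p = 0.0464) and 0.39 ± 0.15 for senile ones (adjusted p = 0.570). The lipid transporter ABCA5 stood at 44.0, 47.2, 40.35, 32.99 and 28.97 CPM in infant, 129, 120, 58.4, 52.6 and 55.5 in mature and 109, 28.9, 127, 91.3 and 76.0 in senile retinas. Senile 2, where 28.93 CPM is a single UMI, lay just below the infant retinas and the others above them (senile against infant 1.37 ± 0.28, adjusted p = 0.0232). The MMP16 call was lost in 21 of the alternatives. It held with DESeq2, with RLE size factors, in cluster 1 alone and when Mature 2, Mature 4 or Senile 3 was left out. The call was lost when any other retina was left out. The value was 0.50 without Mature 1, where the call was lost, and 0.73 without Mature 2, where it held. The MMP16 call was also lost with no filter, no version term, the sex of the study's figure in its place, the replicate block, thinned sums and either version alone. It was lost too without PRKCA-rich clusters or nuclei with other classes' markers. These alternatives gave values from 0.55 to 1.26. The ABCA5 call was lost without Infancy 1, 2, 3 or 5 or Senile 1, 3, 4 or 5, with values of 1.21 (without Senile 3) to 1.45 (without Senile 1). It was also lost with no version term, the sex of the study's figure in its place, the replicate block, either version alone and without PRKCA-rich clusters (1.06 to 1.52).

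TSHZ2, a zinc finger factor of the study's ON_BC list, stood at 267, 407, 334, 1013 and 764 CPM in Infancy 1 to 5, at 452, 698, 907, 654 and 972 in Mature 1 to 5, and at 313, 116, 230, 307 and 287 in Senile 1 to 5. Senile retinas lay below all mature ones but overlapped with infant ones, where Infancy 4 and 5 of the later program version were the highest. The change was -1.17 ± 0.26 against infancy (adjusted p = 0.0470) and -1.49 ± 0.26 against the mature stage (adjusted p = 0.0700). Within libraries labelled Cell Ranger 5.0.1 the difference from infancy was -0.38. The call was also lost without Infancy 2, 4 or 5, Mature 1 or any of Senile 2 to 5, with -0.93 without Infancy 4. It was lost too with no version term, the sex of the study's figure in its place, the replicate block, thinned sums, cluster 1 alone, and without PRKCA-rich clusters or nuclei with other classes' markers (-1.18 to -0.94). The sialyltransferase ST8SIA6 stood at 94.8, 114, 43.2, 296 and 216 CPM in infant, 84.4, 42.9, 117, 86.4 and 143 in mature and 14.6, 57.9, 23.8, 108 and 63.3 in senile retinas. It fell by 1.99 ± 0.35 against infancy (adjusted p = 0.00761), with stages that overlapped. The call was lost without the version term (-1.70), with the sex of the study's figure in its place (-1.77), and within the earlier (-2.13) and the later version (-2.06) alone.

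**Figure D5:**
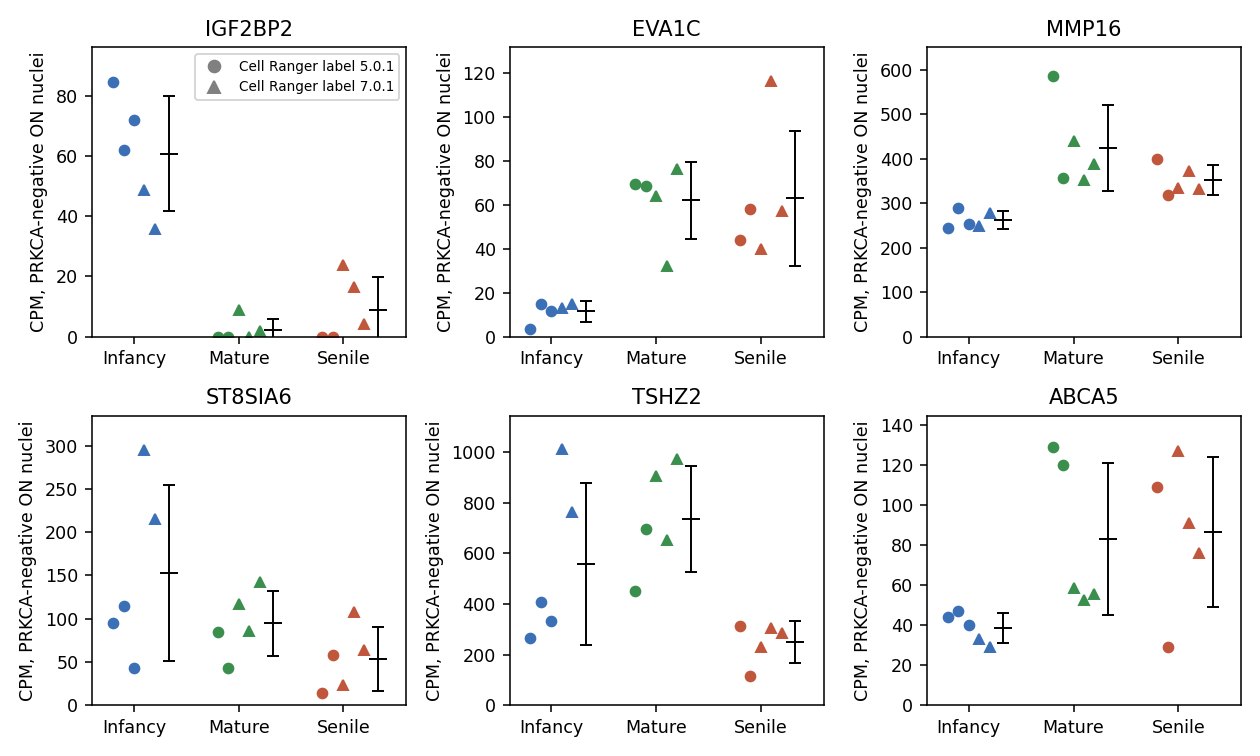
Levels in CPM of the 6 genes with a plain symbol that were called between infant and later stages, per retina, with circles for libraries labelled Cell Ranger 5.0.1, triangles for 7.0.1 and black bars for mean ± SD (n = 5). IGF2BP2 lies at 35.9 CPM or more in infant retinas and at 23.8 or less in all others, and EVA1C at 15.1 or less in infant retinas and at 31.9 or more in all others.

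The lists of ON cascade, ribbon synapse, transmitter receptor, channel, adhesion and guidance genes, with 9 to 38 genes tested each, held 0 called genes between any stages by edgeR, which at 0.410%, 0.410% and 0% called over all genes is no result about these lists. At an unadjusted p under 0.05, each list held from 0 to 5 genes in a comparison. In the ON cascade, the median log2 fold change over 9 genes tested was 0.14 for mature against infant, -0.10 for senile against infant and -0.23 for senile against mature retinas, beside medians of 0.011, -0.001 and -0.006 over all genes tested. These stage tests kept the genes of the rule. Members were selected on UMIs of TRPM1 or GRM6, so where such genes enter, these medians are partly set by the selection. GPR179 had means of 139.8, 158.2 and 95.67 CPM in infant, mature and senile retinas. TRPM1, a gene of the rule, had means of 853.1, 849.2 and 803.1 CPM, and GRM6 of 50.28, 63.55 and 87.62.

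Whether a change between senile and infant retinas differed from that in the other gates was tested as an interaction of stage and gate. Against PRKCA-positive nuclei 1 of 6964 genes was called (0.0144%), the antisense feature NAP1L1-AS-5 (-1.34). Against OFF nuclei edgeR called 0 of 6547 (0%), with 322 at an unadjusted p under 0.05. NAP1L1-AS-5 did not pass against OFF nuclei (-0.80, adjusted p = 0.953). Without Senile 4 the first count was 2, and with no filter on low counts the interactions called 9 and 7 genes.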

How the data were processed

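Nuclei of 15 retinas, 5 per stage, were profiled by single-nucleus RNA sequencing. The authors deposited matrices of unnormalized UMI counts, made with Cell Ranger (5.0.1 for 7 libraries and 7.0.1 for 8 per the labels, 6.1.2 or 7.0.1 per the file headers). The study names a TS_3.0 genome and removal of doublets, but the deposited matrices are not stated to be free of doublets, and none were called here. Counts were read with Python 3.11.15, and ON nuclei were clustered with scanpy 1.11.5 without the 11 genes of the rule. UMIs were summed per retina and gate and tested with edgeR 4.0.16 (quasi-likelihood, TMM scaling, filter on low counts, Benjamini-Hochberg) in R 4.3.3, with stage and program version, or with the retina as block, in the model. DESeq2 1.42.0 was an alternative, and the script was tested on simulated data. Shares were compared with exact permutation tests over retinas. Named genes were the 12 largest differences in each direction among called genes with a plain symbol, at least 20 CPM in every retina of the higher group and no overlap between stages (or 1 direction in every retina between gates), and the members of 27 lists of 399 genes, of which 31 were not represented. Some members of these lists enter the counts but are not reported here by name. Members and lists were chosen with earlier results of these data known. The alternatives with cluster 1 alone and retinas with at least 10 members after thinning were added after seeing the data. GRIK1 was read from its copy GRIK1li1. Replicates are separate retinas, and totals of 13429873 to 58734300 UMIs per library and 34568 to 973193 per retina in the members limit what low genes can show.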

Additional observations from a re-analysis of the deposited data

Results flagged for a closer look

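In 45 groups of 5 retinas, 4 had a highest or lowest retina far from the others, and chance gives about 1 in 20 such groups. Cluster 3, led by NFIB and TSHR, made up 20.57% of the PRKCA-negative ON nuclei in Infancy 1, above all other infant retinas. EVA1C stood at 31.93 CPM in Mature 4, below the other mature retinas, and at 116.1 CPM in Senile 4, above the other senile ones. IGF2BP2 stood at 8.854 CPM in Mature 3, the highest of the mature retinas. The change between senile and infant retinas differed between PRKCA-negative and PRKCA-positive ON nuclei for the antisense feature NAP1L1-AS-5, by -1.34 on the log2 scale in an edgeR interaction test.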

How the results depend on the processing

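Without nuclei of PRKCA-rich clusters, the difference from OFF nuclei changed sign for NFIB (-1.88), GRIK4 (0.07), KCNH7 (-1.33), CACNA1G (-0.89), CACNA2D1 (-0.12), SCN1Ali2 (-0.40), CNTN4 (-1.96), LRRC4C (-0.48) and CALB1 (-0.08), and that from PRKCA-positive ON nuclei changed sign for SLC1A3 (-0.32). The cause was not tested. Of the other values of single genes, 5721 kept direction and call and 219 lost the call. Alternatives in which a gene was filtered out or had no adjusted p do not enter these counts, which favours genes with low counts. CIB4, for example, had a value in only 5 alternatives against PRKCA-positive nuclei.

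Between mature and infant retinas, the count of genes was 41 with DESeq2, 152 with no filter on low counts, 12 without the version term, 39 in the earlier version alone, 0 in the later version alone, 15 with the sex of the study's figure as term, 0 with sums thinned to the smallest total and 15 without PRKCA-rich clusters. Between senile and infant retinas it was 155 with no filter, 12 in cluster 1 alone, 4 in the later version alone, 2 with thinned sums, 15 without PRKCA-rich clusters and 11 without nuclei with other classes' markers. Between senile and mature retinas it was 8 with DESeq2, 71 with no filter and 3 in the earlier version alone. Thinned sums and subsets of nuclei or retinas also left fewer genes or samples to test. Against PRKCA-positive nuclei 2161 genes were called with no filter and 744 with thinned nuclei, and against OFF nuclei 2997 and 867. The interactions gave 9 and 7 genes with no filter.

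The senile minus infant share of all nuclei was -0.770 percentage points with nuclei thinned and those under 1500 UMIs left out (exact permutation test, adjusted p = 0.0238) and -0.603 with retinas of at least 10 members (exact permutation test, adjusted p = 0.0238). In changes that passed no test, the mature minus infant share was 0.211 without nuclei with other classes' markers, and the share of ON nuclei was -1.145 for senile minus infant and -0.237 for senile minus mature retinas of at least 10 members. Without nuclei with other classes' markers, the senile share was -3.385 against infant and -3.595 against mature retinas (exact permutation tests, adjusted p = 0.107 each). Such nuclei left the total as well, and the infant mean was then 7.695%.

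Leaving out each retina in turn gave 14 to 30 genes for mature against infant, 18 to 35 for senile against infant, 0 to 2 for senile against mature, 1229 to 1420 against PRKCA-positive nuclei, 1499 to 1712 against OFF nuclei, and 1 to 2 and 0 to 0 for the interactions. The share of nuclei then ran from -0.705 to 0.0659 (mature minus infant), -1.522 to -1.059 (senile minus infant) and -1.337 to -0.535 (senile minus mature), and the share of ON nuclei from -5.63 to -1.48, -2.506 to 2.522 and 0.556 to 6.313.

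Replicate numbers were not taken to pair the retinas, since not every same-numbered pair correlated over 0.1 (10 of 15 did, from -0.279 to 0.399). Within a program version, pairs of the same number had a median correlation of 0.156 and pairs of different numbers 0.139, and 7 of 15 retinas correlated best with their own number. With the replicate block 22, 26 and 0 genes were called in the 3 stage comparisons, and the senile minus infant share had an adjusted p of 0.281 in the exact sign-flip permutation.

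Senile 2 held 36 members of 34568 UMIs, where 1 UMI was worth 28.93 CPM, and senile age cannot be told apart from animal source.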
